A study of Mus musculus with 12 samples.

Results

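The adult dorsal cerebral cortex of mice lacking normal Kat6b was compared with that of wild-type mice on 6 of the 12 expression arrays of the series, 3 arrays in each genotype. Every probe set with a log2 value over 4 on at least 3 of these 6 arrays was included, which gave 21770 of the 45101 probe sets (48.27%). Of these, 18633 carried exactly 1 gene symbol and stood for 10753 genes, 485 carried several symbols and 2652 had no gene listed. Among the probe sets that passed, 22 were over 4 in mutants only and 15 in wild types only. The values are log2 expression values, so that a difference of 1 is a factor of 2, and all differences below are mutant minus wild type.

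All 6 animals were adult males of strain 129/Sv. The mutants, labelled Qkf gt/gt, carried a gene trap on both alleles of Kat6b, for which Qkf and Myst4 are older names. Wild types 1, 2 and 3 were 155, 112 and 101 days old, and mutants 1, 2 and 3 were 155, 112 and 99 days old, so that each mutant had a wild type of nearly the same age. Each array held the RNA of 1 numbered mouse, amplified over 2 cycles. The trap is carried by the whole animal from conception, so the adult cortex measured here also developed under it. The other 6 arrays hold dorsal telencephalon of the embryonic stage E12.5 from the same genotypes and are used below to set the adult differences beside the embryonic ones and in a fit of all 12 arrays.

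KAT6B is a histone acetyltransferase of the MYST family. It works in a complex with a BRPF scaffold protein, an ING protein that reads histone H3 tails and the small subunit MEAF6, and it acetylates histone H3. Mice with reduced Kat6b have a small cerebral cortex and produce fewer adult-born olfactory bulb neurons, and heterozygous KAT6B variants in humans cause developmental syndromes with intellectual disability. The arrays address which genes differ in the mature cortex when Kat6b is reduced.

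The tissue label was borne out by dorsal cortical genes. Emx1, a transcription factor of the dorsal forebrain, stood at log2 4.94 to 5.58 over the 6 arrays, and Neurod6, made in pyramidal neurons, at 10.03 to 10.42. Xist lay at or next to 2.19, the lowest value on every array and called the floor below, and the Y-linked Eif2s3y at 7.96 to 8.58, as the label of male requires. Correlations over all probe sets were 0.9961 to 0.9967 among wild types and 0.9937 to 0.9972 among mutants. In a piece of tissue, fewer cells of a type and less RNA per cell cannot be told apart.

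Individual mutant arrays stood apart in different respects. Ttr, the transthyretin secreted by the choroid plexus, had a log2 value of 15.16 on mutant 3 and of 6.79 to 9.18 on the other 5 arrays. Of 14 choroid plexus genes on the array, 11 were highest on mutant 3. The number of these genes over log2 4 was 8 on mutant 3 against 2 or 3 on each other array, and Sostdc1, Kcne2 and Kcnj13 were between 5.28 and 5.65 there against at most 3.12 elsewhere. The difference between the 3′ and 5′ actin control probe sets, which grows as RNA or its amplified product is shortened, was 1.91 in mutant 1 and 1.47 in mutant 2. It was 1.09 in mutant 3 and 1.06 to 1.13 in wild types. Hbb-b2, a haemoglobin chain of red cells, stood at 6.73, 6.42 and 5.58 in wild types and at 5.12, 5.58 and 5.39 in mutants. What part these differences play in the results below was not tested, except where a value without an array or with the actin difference as a covariate is given.

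Kat6b itself was the 1 probe set of 21770 past the test (0.00459%). Its log2 values were 9.68, 9.35 and 9.72 in wild types 1, 2 and 3 and 7.25, 7.17 and 6.92 in mutants 1, 2 and 3. The lowest wild type was thus more than 2 log2 units above the highest mutant. Kat6b fell by 2.47 on the log2 scale (SE 0.15, 95% interval -2.82 to -2.12, adjusted p = 0.0333), a 5.54-fold lower level that corresponds to 18.1% of wild type. Within the age pairs the differences were -2.43, -2.18 and -2.80. Of the other Kat6b probe sets, 1447758_x_at stood at 2.24, 2.66 and 2.87 in wild types and at the floor in every mutant, and 1446189_at was at the floor on all 6 arrays. Where the probes lie relative to the inserted trap was not analysed here, so the remaining signal cannot be assigned to an intact transcript. The call depends on every array. With any 1 array left out the difference was -2.59 to -2.37 but the adjusted p was 0.0879 to 0.572, and no probe set passed the test, while 805 to 2543 had an unadjusted p under 0.05.

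The probe set closest to Kat6b in the size of its difference was 1447258_at, for which the array annotation lists no gene. It had log2 values of 5.96, 5.51 and 6.30 in wild types and 3.53, 3.46 and 3.27 in mutants. Its difference of -2.50 (SE 0.21) was as large as that of Kat6b but missed the threshold (adjusted p = 0.131). The probe set 1439980_at, also without a listed gene, stood at 5.04, 6.31 and 5.40 in wild types and at 3.53, 3.54 and 3.61 in mutants, a difference of -2.03 (SE 0.31, adjusted p = 0.643). In neither did the groups overlap. Both had every mutant under log2 4 and so passed the filter only through the wild types, where they are high, which holds for each of their values below. With quantile normalization 1447258_at had an adjusted p of 0.0353, with median centring 0.0173 and without the filter 0.458.

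**Figure D1:**
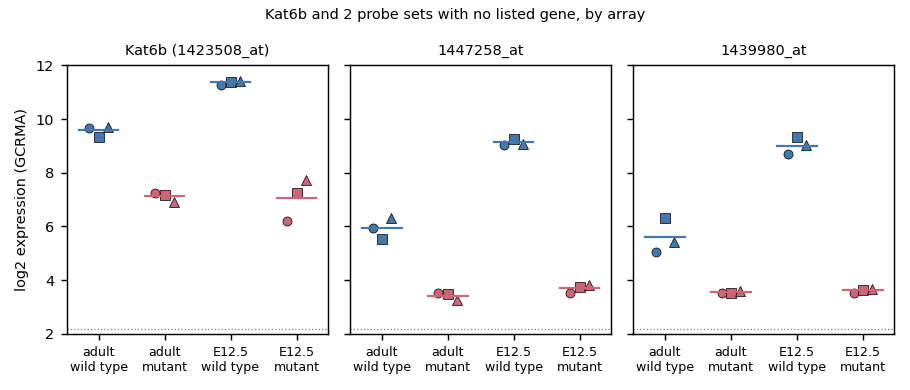
Log2 expression of Kat6b and of 2 probe sets with no listed gene on each array, for adult dorsal cortex and for embryonic dorsal telencephalon (E12.5). Points are single arrays, short lines the means of 3 arrays and the dotted line the floor of 2.19. In all 3 probe sets the mutant means of the 2 stages lie close to each other, while the adult wild types lie below the embryonic wild types.

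The same 3 probe sets were among 14 of the 21770 (0.0643%) past the test in embryos. Kat6b differed by -4.31 in embryos (adjusted p = 0.000123), 1447258_at by -5.44 (adjusted p = 1.44e-07) and 1439980_at by -5.40 (adjusted p = 6.07e-06). In the direct test of the adult against the embryonic difference, over the same probe sets, 2 of 21770 (0.00919%) passed, and these were 1447258_at (2.93, SE 0.25, adjusted p = 0.0038) and 1439980_at (3.37, SE 0.38, adjusted p = 0.0271). Mutant values of both were similar in the 2 stages, so these stage differences mainly follow the lower wild-type values in adults. With age pair and cross as a replicate block neither passed (adjusted p = 0.0559 and 0.0774), and 1439980_at also missed the threshold without wild type 3 (0.109) and without mutant 1, 2 or 3 (0.147 to 0.152). Kat6b did not pass that test (1.84, SE 0.42, adjusted p = 0.534), while 1213 probe sets (5.57%) had an unadjusted p under 0.05 there.

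The partners and relatives of KAT6B showed no difference past the test. Of 14 genes for its complexes and for the MYST family, 13 were measured and only Kat6b was called. Brpf3, a scaffold of acetyltransferase complexes, had log2 values of 5.82, 5.69 and 6.07 in wild types and 6.15, 6.91 and 6.59 in mutants (0.69, SE 0.21, adjusted p = 0.847). Kat6a, the closest relative of Kat6b, stood at 9.24, 9.06 and 9.28 in wild types and 9.43, 9.39 and 9.41 in mutants (0.22, SE 0.10, adjusted p = 0.847). Both genes were higher on every mutant array than on any wild type, which made 15.4% of the 13 against 7.16% of all genes. Kat8, the histone H4 acetyltransferase of the family, differed by 0.15 (SE 0.16) with overlapping groups. The other 9 measured members, Kat5, Kat7, Brpf1, Brd1, Ing5, Meaf6, Jade1, Jade2 and Jade3, differed by -0.10 to 0.12, and Ing4 was below the filter.

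Beyond Kat6b no probe set passed the test, and the differences in both directions were mostly small. An unadjusted p under 0.05 was reached by 1274 probe sets (5.85%), 895 with higher values in mutants (4.11%) and 379 with lower values (1.74%). That excess of higher values depends on the scaling: with quantile normalization the numbers were 597 and 543, and with each array centred on its median 494 and 629. The total also depends on single arrays, with 2543 probe sets when mutant 3 was left out and 805 when wild type 1 was. Groups did not overlap in 2224 probe sets (10.2%), of which 1495 (6.87%) were higher and 729 (3.35%) lower in mutants, and in 18 of these (0.0827%) the means differed at least 2-fold, 5 higher and 13 lower in mutants. Several of the 13 rested largely on mutant 1, the array with the actin difference of 1.91, while others, such as Kat6b, did not. Ano3, named after its values were seen, stood at 6.19, 7.54 and 7.58 in mutants 1, 2 and 3. A link to the actin difference was not tested. The median SE of a difference was 0.14, and the median difference over all probe sets was 0.03. The share of 5.85% is close to what a threshold of 0.05 passes where nothing differs. With 3 arrays in each genotype, groups that do not overlap are also common where nothing differs.

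**Figure D2:**
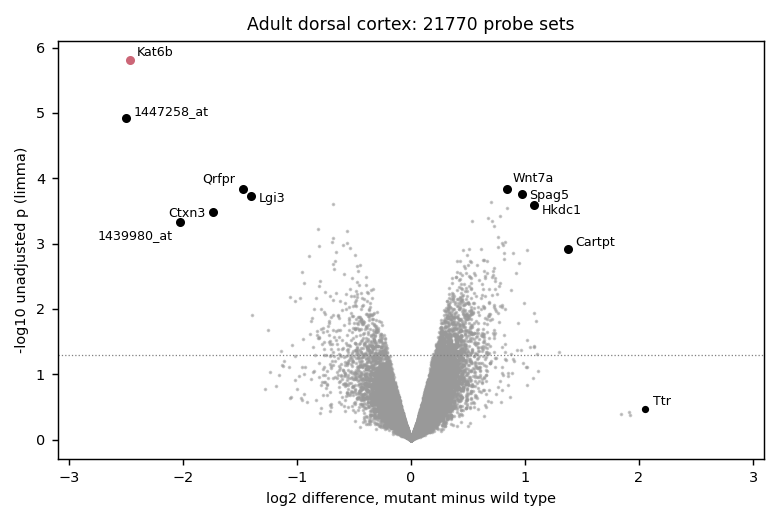
Log2 difference, mutant minus wild type, against -log10 of the unadjusted limma p for the 21770 probe sets in adult dorsal cortex. The dotted line marks an unadjusted p of 0.05. Kat6b and 1447258_at stand apart at the upper left, and Ttr shows a large mean difference with a high p because it was high on mutant 3 alone.

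The 15 named genes with the lowest p among those higher on every mutant array differed by 0.49 to 1.37, with adjusted p of 0.617 to 0.82, so that none of them passed the test. Cartpt, the precursor of the CART neuropeptide, stood at 4.62, 4.80 and 3.91 in wild types and at 5.95, 5.93 and 5.57 in mutants, a difference of 1.37 (SE 0.25). Hkdc1, a hexokinase family member, stood at 4.69, 4.61 and 4.45 in wild types and at 5.56, 5.95 and 5.48 in mutants (1.08, SE 0.15). These 2 genes had the largest differences of the 15, and both have 1 probe set over the filter.

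Wnt7a, a secreted Wnt ligand, had the lowest p of the higher genes, with log2 values of 5.06, 5.19 and 5.06 in wild types and 5.86, 5.89 and 6.10 in mutants (0.84, SE 0.11). Its other measured probe set differed by -0.25. Prdm16, a zinc-finger regulator of transcription, stood at 6.21, 6.20 and 6.26 in wild types and at 6.75, 6.73 and 6.78 in mutants (0.53, SE 0.08). Spag5, a protein of the mitotic spindle, differed by 0.97 (SE 0.12), and its probe set with the highest mean by 0.44.

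The remaining higher genes served varied functions. Ovca2, a serine hydrolase, differed by 0.70 and Mxra7 by 0.85. Trio, a guanine nucleotide exchange factor, differed by 0.82, Nav2, a neuron navigator of the cytoskeleton, by 0.71, and Lmna, which encodes nuclear lamins, by 0.89. Vps54, a subunit of a tethering complex in retrograde transport, differed by 0.77, Tor1b, a torsin ATPase, by 0.82 and Snx5, a sorting nexin, by 0.49. Chd8, a chromatin remodeller, differed by 0.61 and Lrfn1, a synaptic adhesion protein, by 0.64. Lrfn1 was under log2 4 on every wild-type array and passed the filter only through the mutants.

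Among the 15 named genes lower on every mutant array, those other than Kat6b also missed the test, with adjusted p of 0.617 to 0.82. Qrfpr, the receptor of the neuropeptide QRFP, stood at 5.25, 5.86 and 5.67 in wild types and at 4.20, 3.90 and 4.25 in mutants, a difference of -1.48 (SE 0.18). Ctxn3, a cortexin of neuronal membranes, stood at 5.18, 4.73 and 4.85 in wild types and at 2.68, 3.29 and 3.58 in mutants (-1.74, SE 0.25), so that in mutants it lay under the filter level on every array and it was included only through the wild types. Each of these genes has a single probe set on the array. In a fit of all 12 arrays, which takes its spread partly from embryos, Qrfpr, Ctxn3, Hkdc1, Spag5, 1447258_at and 1439980_at joined Kat6b past the test, with adjusted p of 0.000553 to 0.0358 for these 6 and 0.0198 for Kat6b. Of these, Ctxn3, 1447258_at and 1439980_at were in that fit only because their wild types exceed the filter. On the embryonic arrays Qrfpr stood at 2.19 to 2.431, Hkdc1 at 2.265 to 2.317 and Ctxn3 at 2.679 to 3.137. Such low values vary little and lower the spread which that fit uses for these genes, so their calls there are no added support.

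Lgi3, a secreted neuronal protein of the leucine-rich glioma-inactivated family, showed how far probe sets of 1 gene can part. Its probe set 1436238_at stood at 5.89, 5.31 and 5.89 in wild types and at 4.17, 4.27 and 4.44 in mutants (-1.40, SE 0.18). The Lgi3 probe set with the highest mean, 1433667_at, stood at 8.79 ± 0.30 (SD, n = 3) in wild types and at 9.12 ± 0.16 (n = 3) in mutants (0.33, SE 0.18). The 2 probe sets thus had opposite signs on the same 6 arrays.

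Ptger3, a receptor of prostaglandin E, differed by -0.89 (SE 0.17) with wild types between 5.91 and 5.92. Dnm3, a dynamin of synapses, differed by -0.56, Dgke, a diacylglycerol kinase, by -0.70 and Plxnb3, a semaphorin receptor, by -0.50. Pibf1, a centrosomal protein, differed by -0.81, and its probe set with the highest mean by -0.68. Opa1, the GTPase of mitochondrial inner membrane fusion, differed by -0.81, Slc7a4, of the cationic amino acid transporter family, by -0.69, and Fam168a by -0.66. Tmod3, which caps actin filaments, differed by -0.57, Pxmp4, a peroxisomal membrane protein, by -0.59 and Ufsp1, of the UFM1 protease family, by -0.66. The named probe sets of Pibf1 and Pxmp4 were under log2 4 on every mutant array and passed the filter only through the wild types.

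For 7 of the 15 higher and 6 of the 15 lower genes the named probe set is the one with the highest mean for its gene. In the others the probe set with the highest mean gave a smaller difference in size, and its sign was opposite for Snx5 among the higher genes and for Lgi3, Slc7a4, Opa1 and Fam168a among the lower ones. Its difference was only 0.04 for Vps54, 0.11 for Tor1b, -0.09 for Dnm3, -0.11 for Dgke and -0.05 for Ufsp1. It was larger for Spag5 (0.44) and Pibf1 (-0.68). Apart from Kat6b, the named probe sets had wild-type means of at most 6.22 (higher genes) and 7.55 (lower genes). The median level of all kept probe sets was 7.57. In embryos the 15 higher genes and the 14 lower genes other than Kat6b differed by -0.60 to 0.61, each with an adjusted p of 1. Some of these probe sets lay at or near the floor on all embryonic arrays, such as Cartpt (2.205 to 2.24), Hkdc1 (2.265 to 2.317) and Qrfpr (2.19 to 2.431). A lower value in mutant embryos could not have been seen in them. The adult and embryonic differences of these 29 genes were not shown to differ, with the lowest adjusted p at 0.117 for Qrfpr.

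**Figure D3:**
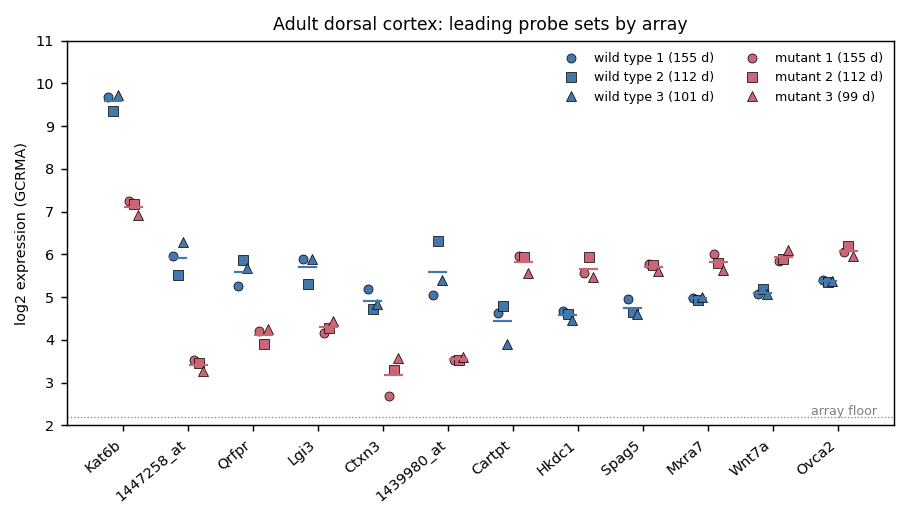
Log2 expression on each adult array for Kat6b, 2 probe sets without a listed gene and 9 of the named genes with a low p. Points are single arrays with the marker giving the age pair (d, days), short lines the means of 3 arrays and the dotted line the floor of 2.19. Wild types and mutants are apart in every column, by most for Kat6b and 1447258_at.

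Genes were next described by function, with the probe set of the highest mean standing for each gene. Over all 10753 genes 60% of the differences were positive and 39.8% negative, the median was 0.04, and an unadjusted p under 0.05 was reached by 423 genes with higher values in mutants (3.93%) and by 120 with lower values (1.12%). Groups did not overlap in 7.16% of genes on the higher side and 2.63% on the lower side. Kat6b was the 1 gene past the test (0.0093%), so that no member named in the following paragraphs was.

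Markers of cortical neuron classes lay around the median of all genes. Of 22 measured interneuron genes, 11 were positive and 11 negative, with a median of 0.02 that was -0.03 with median centring. Lhx6, the transcription factor of interneurons from the medial ganglionic eminence, stood at 6.97, 7.16 and 6.99 in wild types and at 6.62, 6.92 and 6.42 in mutants (-0.39, SE 0.15, adjusted p = 0.847), the only interneuron gene lower on every mutant array. Tac2, a tachykinin precursor, differed by -0.45 (SE 0.21) and Reln, the secreted protein reelin, by -0.27 (SE 0.18), both with overlapping groups. Crh, which encodes corticotropin-releasing hormone, differed by 0.35 (SE 0.14), also with overlap.

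Upper-layer neuron genes were positive in 10 of 18 (median 0.06, but -0.05 with the filter at log2 6), and Kitl (0.27), Plxnd1 (0.26) and Rspo1 (0.36) were higher on every mutant array, against Cux1 (0.33) with overlap. The share higher on every mutant array was 16.7% of the 18, against 7.16% of all genes. Deep-layer genes were positive in 11 of 21 (median 0.05, -0.01 with median centring). Cplx3, a complexin of subplate neurons, stood at 5.75, 5.93 and 6.06 in wild types and at 4.45, 5.24 and 5.61 in mutants (-0.82, SE 0.29, adjusted p = 0.847). Mutant 1 was the lowest by a wide margin, and it is also the array with the largest actin 3′ to 5′ difference. Any link was not tested. Fezf2, the transcription factor of subcerebral projection neurons, stood at 8.58, 8.85 and 8.97 in wild types and at 8.35, 8.18 and 8.69 in mutants (-0.39, SE 0.17) with overlap. Foxp2, a marker of corticothalamic neurons, differed by 0.22 (SE 0.09) without overlap, and Oprk1, the kappa opioid receptor, by 1.01 (SE 0.48) with wild types spread from 3.66 to 5.09.

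Genes of the glutamatergic synapse were mostly positive. Of 34 measured, 29 were positive and 5 negative, with a median of 0.15 against 0.04 over all genes, and 6 of them (17.6%) were higher on every mutant array against 7.16% of all genes. The mean over these genes was 9.15, 9.20 and 9.28 in wild types and 9.43, 9.35 and 9.35 in mutants, without overlap. The means over all 10753 genes did not overlap either, at 8.138, 8.143 and 8.169 in wild types and 8.209, 8.199 and 8.175 in mutants. The median of the synapse genes was 0.09 to 0.19 over all alternatives run. Grik5, a kainate receptor subunit, stood at 8.28, 8.65 and 9.04 in wild types and at 9.68, 9.06 and 9.40 in mutants (0.73, SE 0.24). Dlgap3, a postsynaptic scaffold protein, differed by 0.55 (SE 0.19) and Grin2c, an NMDA receptor subunit, by 0.53 (SE 0.18), both with overlap. Grm8, a presynaptic metabotropic receptor, went against these with 5.38, 5.44 and 5.78 in wild types and 5.05, 4.99 and 4.95 in mutants (-0.54, SE 0.13, adjusted p = 0.847).

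Of 53 genes for potassium, sodium and calcium channels and related cation channels, 36 were positive (median 0.09). Kcnip2, a subunit of A-type potassium channels, stood at 10.31, 10.30 and 10.19 in wild types and at 10.69, 10.65 and 10.63 in mutants (0.39, SE 0.09). Cacna1g, a T-type calcium channel, differed by 0.34 (SE 0.09) and Scn3a, a sodium channel, by 0.49 (SE 0.15), both higher on every mutant array. Trpc5, a receptor-operated cation channel, stood at 6.09, 6.14 and 5.56 in wild types and at 4.92, 5.27 and 5.19 in mutants (-0.80, SE 0.19). Groups were apart on the higher side in 5 of the 53 (9.43%) and on the lower side in 3 (5.66%). The shares of all genes were 7.16% and 2.63%. GABA receptor genes were positive in 7 of 12 (median 0.02, -0.03 with median centring), none with an unadjusted p under 0.05, and Gabra2 differed by -0.16 (SE 0.10).

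Of 28 neuropeptide and receptor genes, 19 were positive (median 0.05, -0.03 without wild type 1), with Cartpt and Qrfpr at the 2 ends. Cckbr, the cortical cholecystokinin receptor, differed by -0.24 (SE 0.10) and was lower on every mutant array. Activity-regulated immediate early genes were positive in 15 of 20 with a median of 0.13 that turned to -0.07 without wild type 1. Jun, a subunit of the AP-1 transcription factor, stood at 9.02, 9.06 and 9.30 in wild types and at 9.47, 9.30 and 10.37 in mutants (0.59, SE 0.28), highest on mutant 3. Ier2 differed by 0.42 (SE 0.23) with overlap.

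Myelin and oligodendrocyte genes had the lowest median of the lists with 5 or more measured genes. All 17 measured were negative, against 39.8% of all genes, with differences of -0.53 to -0.04 and a median of -0.33. An unadjusted p under 0.05 on the lower side was reached by 3 of the 17, and 3 (17.6%) were lower on every mutant array against 2.63% of all genes. Sox10, the transcription factor of the oligodendrocyte lineage, stood at 7.03, 7.23 and 7.16 in wild types and at 6.71, 6.81 and 6.88 in mutants (-0.34, SE 0.10, adjusted p = 0.847). Myrf, which switches on myelin genes, stood at 5.81, 5.50 and 5.58 in wild types and at 5.24, 5.48 and 5.02 in mutants (-0.38, SE 0.15). Both were lower on every mutant array, in Myrf with mutant 2 just under wild type 2.

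The third gene lower on every mutant array was Cnp, an enzyme of myelin, named here after its values were seen. It stood at 12.93, 12.45 and 12.64 in wild types and at 12.39, 12.45 and 12.19 in mutants (-0.33, SE 0.15, adjusted p = 0.855), with mutant 2 less than 0.01 under wild type 2. The other 14 genes overlapped. Mag, the myelin-associated glycoprotein, stood at 9.15, 9.03 and 9.42 in wild types and at 8.62, 9.04 and 8.79 in mutants (-0.38, SE 0.15). Tspan2, a tetraspanin of oligodendrocytes, differed by -0.38 (SE 0.16). The mean over the 17 genes was 9.36, 8.99 and 9.30 in wild types and 8.81, 9.15 and 8.80 in mutants, so that mutant 2 lay above wild type 2 and the groups overlapped. The median was -0.28 with the actin difference as a covariate, -0.26 without mutant 3, -0.28 without mutant 1 and -0.48 without mutant 2. Precursor genes of the lineage were positive in 5 of 10 (median -0.00). Among them Tnr, the matrix protein tenascin-R, differed by 0.41 (SE 0.11) and Matn4, a matrilin, by 0.43 (SE 0.14), both higher on every mutant array. These 2 were 20% of the 10, against 7.16% of all genes.

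**Figure D4:**
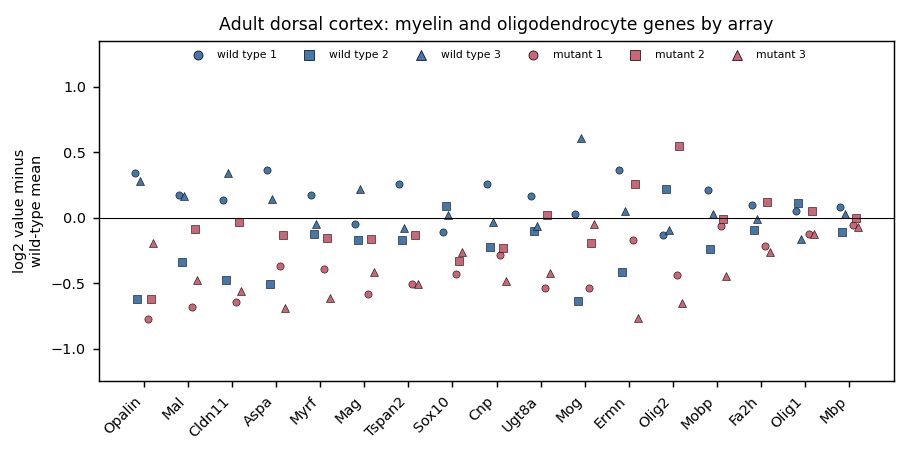
Log2 value minus the wild-type mean for the 17 measured myelin and oligodendrocyte genes on each adult array, ordered by the difference between genotypes. Points are single arrays. Mutants 1 and 3 lie mostly below 0, wild type 2 is the low wild type for most genes, and mutant 2 overlaps the wild types.

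Astrocyte genes were positive in 15 of 19 with a median of 0.11. Slc14a1, a urea transporter, stood at 5.27, 5.29 and 5.29 in wild types and at 5.85, 5.84 and 6.47 in mutants (0.77, SE 0.18). Slc7a10, the astrocyte transporter of D-serine and small neutral amino acids, differed by 0.43 (SE 0.13) and Fgfr3, a fibroblast growth factor receptor, by 0.20 (SE 0.09), all 3 without overlap. They made up 15.8% of the 19, against 7.16% of all genes. Microglial genes were positive in 8 of 13 with a median of 0.04 that turned to -0.06 without mutant 3, and none had groups apart.

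Genes of endothelium and pericytes had the highest median of the lists with 5 or more measured genes. Of 16 measured, 13 were positive, 2 negative and Pecam1 was at the same value on all 6 arrays. The median was 0.24, and 5 of the 16 (31.2%) were higher on every mutant array against 7.16% of all genes. Pdgfrb, the growth factor receptor of pericytes, stood at 8.33, 8.20 and 8.44 in wild types and at 8.86, 8.69 and 8.62 in mutants (0.40, SE 0.11). Tek, the endothelial angiopoietin receptor, stood at 6.49, 6.40 and 6.40 in wild types and at 6.80, 6.64 and 6.83 in mutants (0.33, SE 0.09). Abcc9, a subunit of pericyte potassium channels, differed by 0.42 (SE 0.14) and Vwf, the endothelial von Willebrand factor, by 0.40 (SE 0.14), and each of the 4 had an adjusted p of 0.847.

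The mean over the vascular genes was 7.29, 7.20 and 7.08 in wild types and 7.44, 7.40 and 7.37 in mutants. These means did not overlap, but neither did the means over all 10753 genes, which were also higher in mutants. The median difference was 0.17 to 0.32 over all alternatives run. Of 7 listed red cell genes only 2 were measured, and both were negative. Hbb-b2 differed by -0.88 (SE 0.30), with wild type 3 at 5.584 next to mutant 2 at 5.576. Alas2, the haem synthesis enzyme of red cells, differed by -1.24 (SE 0.62) with overlapping groups.

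Markers of neighbouring tissue were few over the filter. Aldh1a2, the retinoic acid enzyme of meninges, stood at 6.24, 6.43 and 5.65 in wild types and at 5.66, 5.05 and 5.40 in mutants (-0.74, SE 0.25). The lists for meninges, striatum, and hippocampus with thalamus held 8, 5 and 5 measured genes with medians of -0.05, -0.09 and 0.02, each of which changed sign under other settings. Their members included Rgs9 of the striatum at -0.28 (SE 0.20) and Prkcd of the thalamus at 0.29 (SE 0.17), both with overlap. Ttr differed by 2.06 (SE 1.99) in the mean and by -0.33 without mutant 3.

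**Figure D5:**
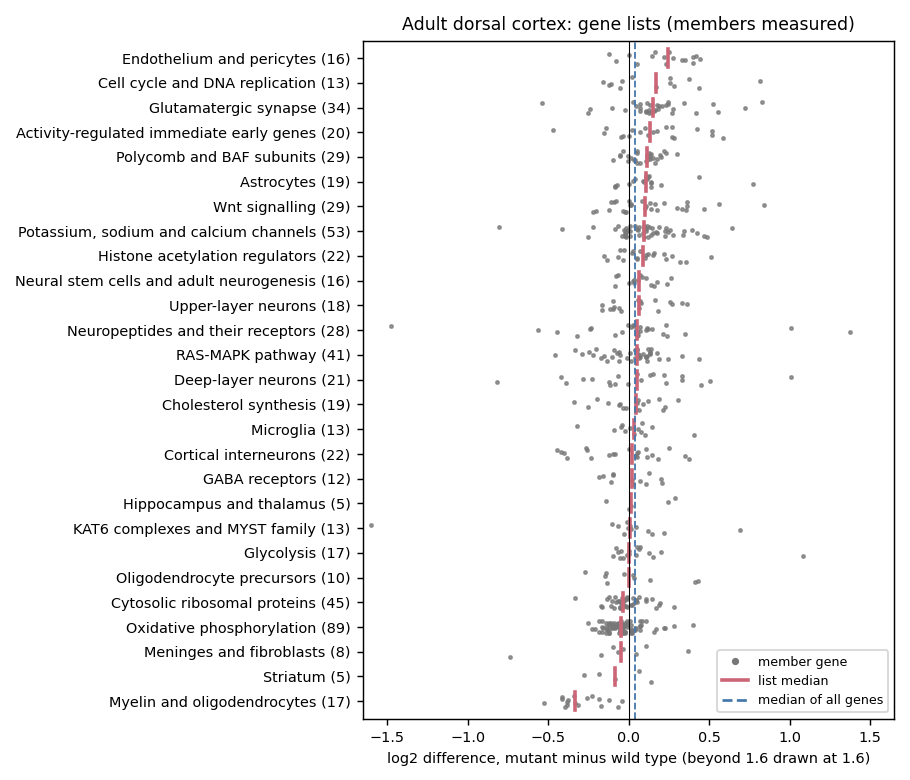
Log2 difference, mutant minus wild type, for the measured members of each gene list with at least 5 measured genes. Dots are genes, red bars list medians, the dashed line the median of all genes (0.04), and the number measured stands in brackets. The myelin list lies wholly below 0 and the endothelial and pericyte list has the highest median.

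Signalling genes held a few separated members. Of 29 Wnt pathway genes, 19 were positive and 9 negative with a median of 0.10, which turned to -0.02 with the actin difference as a covariate. Next to Wnt7a, Axin2, a feedback inhibitor that Wnt signalling induces, stood at 6.60, 6.24 and 6.56 in wild types and at 7.01, 6.85 and 6.95 in mutants (0.47, SE 0.13, adjusted p = 0.847). Lrp6, the Wnt co-receptor, stood at 7.85, 7.97 and 7.73 in wild types and at 8.30, 8.28 and 8.04 in mutants (0.36, SE 0.12). With Rspo1, a secreted enhancer of the pathway, 4 of the 29 were higher on every mutant array (13.8%) against 7.16% of all genes.

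In the RAS-MAPK pathway 25 of 41 genes were positive (median 0.05, -0.01 with median centring). Fgfr1, a receptor that feeds the pathway, stood at 7.08, 7.23 and 7.40 in wild types and at 7.71, 7.67 and 7.64 in mutants (0.44, SE 0.11). Nras, a small GTPase of the pathway, differed by 0.33 (SE 0.13) and was also higher on every mutant array. Egfr, another receptor of the pathway, differed by -0.34 (SE 0.11) and was lower on every mutant array. Groups were thus apart in 2 of 41 on the higher side (4.88%) and in 1 on the lower side (2.44%). Both shares were below those of all genes, 7.16% and 2.63%.

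Of 22 other histone acetylation genes, 16 were positive with a median of 0.09, and 4 (18.2%) were higher on every mutant array against 7.16% of all genes. The median was 0.05 with quantile normalization and 0.03 with median centring, and the means over all measured genes were also higher in mutants. Hdac4, a class IIa deacetylase, stood at 7.07, 7.11 and 7.15 in wild types and at 7.68, 7.87 and 7.32 in mutants (0.51, SE 0.15, adjusted p = 0.847). Its relative Hdac5 differed by 0.32 (SE 0.14), Brd2, a reader of acetylated histones, by 0.36 (SE 0.11), and Kat2a, an acetyltransferase of another family, by 0.23 (SE 0.09). Polycomb and BAF subunits were positive in 23 of 29 (median 0.11), none with an unadjusted p under 0.05. Smarcc1, a BAF core subunit, differed by 0.30 (SE 0.15) with overlap.

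Genes of neural stem cells and adult neurogenesis were positive in 12 of 16, with a median of 0.07 that turned to -0.03 without mutant 3. Sox2, a transcription factor of stem cells and astrocytes, stood at 9.82 to 10.03 in wild types and at 10.16 to 10.32 in mutants (0.26, SE 0.10). Of 29 cell cycle and replication genes only 13 were measured, and Mki67 and Top2a were under the filter. The 13 had a median of 0.17, which turned to -0.07 without mutant 3. Rfc4, of the clamp loader, differed by 0.44 (SE 0.10), Mcm7, of the replicative helicase, by 0.37 (SE 0.10) and Rrm1, of ribonucleotide reductase, by 0.81 (SE 0.28), all 3 without overlap. These were 23.1% of the 13, against 7.16% of all genes. Rfc4 turned to -0.10 when its probe sets were averaged.

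Metabolic genes lay close to 0. Oxidative phosphorylation genes were negative in 66 of 89 (median -0.05), none with an unadjusted p under 0.05, with Atp5c1, of the ATP synthase, at -0.21 (SE 0.10) and Ndufa5, of complex I, at 0.17 (SE 0.08). Cytosolic ribosomal protein genes were negative in 30 of 45 (median -0.03), which turned to 0.08 with the actin difference as a covariate, and Rpl39 differed by -0.12 (SE 0.09). Glycolytic genes had a median of 0.00 (-0.05 with median centring) with Hkdc1 far above the rest. Of 19 cholesterol synthesis genes 11 were positive (median 0.05, -0.01 with median centring). Nsdhl (-0.26, SE 0.09) and Mvk (-0.34, SE 0.15) were lower and Ebp (0.23, SE 0.09) higher on every mutant array. That is 10.5% of the 19 lower and 5.26% higher, against 2.63% and 7.16% of all genes.

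The genes around Kat6b showed no difference past the test. Of the 10 annotated protein-coding genes on each side, 15 of 20 were measured, 12 were positive and 3 negative (median 0.08), and none had an unadjusted p under 0.05. Comtd1, a methyltransferase-domain gene, stood at 7.24, 7.24 and 7.28 in wild types and at 7.60, 7.28 and 7.57 in mutants (0.24, SE 0.11, adjusted p = 0.855). In embryos Comtd1 differed by 1.24 (adjusted p = 0.00526), and the adult difference was not shown to differ from it (adjusted p = 0.257). Ap3m1, a subunit of the AP-3 vesicle adaptor, stood at 7.04, 7.25 and 7.16 in wild types and at 5.91, 6.91 and 6.75 in mutants (-0.63, SE 0.26). Kcnma1, the large-conductance calcium-activated potassium channel, stood at 10.35, 10.37 and 10.28 in wild types and at 9.76, 10.23 and 10.25 in mutants (-0.26, SE 0.15). In both the lowest value was that of mutant 1, the array with the actin difference of 1.91. Whether these low values are linked to it was not tested. Adk, the nearest upstream neighbour in gene order, differed by 0.08 (SE 0.13).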

How the data were processed

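Expression was measured on 12 Affymetrix arrays, of which 6 are compared here. The authors deposited log2 expression values, made with GCRMA per the submitters' processing notes. No version or settings are given in the sources used here. The values were used as deposited. Array medians were 3.68 to 3.70, and 29.8% to 30.9% of an array's values lay at the floor of 2.19, so differences from the floor understate the change. Single probe sets can rest at a constant value above it, such as Pecam1 at 4.191 on all 6 arrays. The number of arrays limits the precision. Gene names came from the platform annotation, where 34945 had 1 symbol (34741 updated by gene ID), 932 several, 9160 none, and 64 were controls, which were left out. Gene order around Kat6b came from the RefSeq annotation of GRCm38.p6.

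Probe sets over log2 4 on at least 3 of the 6 arrays were fitted with limma 3.58.1 in R 4.3.3 (lmFit, eBayes; 4 residual and 2.38 prior degrees of freedom), two-sided, with Benjamini-Hochberg adjustment over all 21770 and a threshold of 0.05. The script was tested on simulated data. The difference between stages was the interaction contrast of a fit to all 12 arrays. P-values set a difference against the spread between these mice, moderated over all probe sets. In fits of all 12 arrays the spread between embryonic arrays enters too.

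Named were all Kat6b probe sets, all probe sets past the test, the 15 higher and 15 lower genes of lowest p with groups apart, the KAT6 family, up to 4 members of lowest p in each of 29 lists, 10 neighbours of Kat6b on each side and control genes. Probe sets without a gene were chosen after their values were seen. The members and lists were chosen with earlier results of these data known, and lists are described by counts and medians without a test. In lists a gene was represented by its brightest kept probe set. Alternatives varied the filter, scaling, variance model, array weights, probe sets, samples, age pairs and each array.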

Additional observations from a re-analysis of the deposited data

Results flagged for a closer look

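The genotype difference of 2 probe sets differed between adult cortex and embryonic telencephalon in a direct test, and no gene is listed for either. Both had every adult mutant under log2 4 and passed the filter only through the adult wild types. For 1447258_at the log2 values were 5.96, 5.51 and 6.30 in adult wild types against 9.04, 9.28 and 9.07 in embryonic wild types, while mutants stood at 3.27 to 3.53 in adults and 3.53 to 3.80 in embryos. The adult difference was thus smaller in size by 2.93 (SE 0.25, adjusted p = 0.0038). For 1439980_at the log2 values were 5.04, 6.31 and 5.40 in adult wild types against 8.69, 9.33 and 9.03 in embryonic wild types, with mutants at 3.53 to 3.61 in adults and 3.53 to 3.66 in embryos. The adult difference was smaller in size by 3.37 (SE 0.38, adjusted p = 0.0271). In both probe sets the mutant values were similar in the 2 stages. The stage difference thus mainly follows the lower wild-type values in adults. Whether the mutant values hold signal above the probe set's own background was not tested. With age pair and cross as a replicate block neither passed the test (adjusted p = 0.0559 and 0.0774). With any 1 adult array left out 1447258_at passed, at 0.00127 to 0.0304, while 1439980_at had an adjusted p of 0.000726 to 0.152 and missed the threshold without wild type 3 and without each mutant.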

How the results depend on the processing

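The Kat6b difference kept its sign in all 19 alternatives run for it (-2.61 to -2.37, adjusted p 0.00281 to 0.758) but not its call. It was -2.47 without the filter on low values (adjusted p = 0.202), -2.61 with the actin difference as a covariate (adjusted p = 0.303), and -2.59 to -2.37 with each array left out (adjusted p 0.0879 to 0.572). Adult mice of the same age pair had deviations from their group means that correlated at 0.19, -0.00 and 0.20, and mice of different pairs at -0.28 to 0.18, so the pairing was not clear. With the age pair as a replicate block Kat6b stayed at -2.47 (adjusted p = 0.758), 0 probe sets were called, 1385 had an unadjusted p under 0.05, and the test between stages called 0 in place of 2. The number of probe sets called was 1 in the analysis reported, 7 with all 12 arrays, 2 with quantile normalization and 2 with median centring (Kat6b and 1447258_at in both), 2 without the filter (Sdad1 and Tut4, chosen after their values were seen), 0 with the actin covariate, where 1327 had an unadjusted p under 0.05, and 0 to 0 with each array left out. The test between stages called 1 to 4 with each array left out. With the probe set of the highest mean in place of the named one, Snx5 turned to -0.19, Lgi3 to 0.33, Slc7a4 to 0.006, Opa1 to 0.028 and Fam168a to 0.26. Rfc4 turned to -0.10 when its probe sets were averaged. Ttr was -0.33 without mutant 3, 3.41 without mutant 2 and 5.23 with the actin covariate, the ends of its range being the first and the last. Apart from list medians, the values of other sign for these 7 genes were the only ones among 1954 alternative values of 108 results. Of 463 alternative values of the 29 list medians, 64 had another sign, in 20 lists. Values near the floor limit what can be seen of lowly expressed genes.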
